A study of Mus musculus with 13 samples.

Results

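The cytosolic ribosomal protein genes were followed through the spontaneous immortalization of mouse embryonic fibroblasts (MEFs). They were chosen by symbol: protein-coding genes named Rpl or Rps followed by a number, Rplp or Rpsa, without the pseudogene symbols ending in -ps and without the Rps6k kinases. The rule found 86 of the 55487 genes in the count tables, on 19 chromosomes. It left out 7 rows with a fitting symbol that are annotated as pseudogenes. The 86 genes comprised 43 large subunit genes, 31 small subunit genes, 3 genes of the P-stalk, and 9 others, namely the paralogs Rps27l, Rps27rt, Rpl22l1, Rpl39l, Rpl3l, Rpl10l and Rpl36al together with Rpl7l1 and Rps19bp1. The last pair carry a ribosomal protein symbol but are not known as subunits of the cytosolic ribosome: Rpl7l1 acts in ribosome assembly, and Rps19bp1 is named as a binding protein of Rps19.

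Each ribosome is made of a small subunit, which decodes the mRNA, and a large subunit, which joins the amino acids. Most ribosomal proteins are needed in equal numbers, and their mRNAs belong to the most abundant in growing cells. Many of these mRNAs begin with a terminal oligopyrimidine (TOP) motif, a cytosine followed by a run of pyrimidines, through which mTOR signaling controls their translation. Mammalian genomes also carry many processed pseudogenes of these genes, intronless copies of their mRNAs.

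Poly-A RNA was sequenced from 13 cultures in 4 groups. WT primary MEFs (clones 3, 4 and 5, from different embryos) were compared with WT immortalized MEFs that arose from the same clones. MEFs labelled Prkd3-/- (genotype as labelled, without a named allele or strain) comprised primary cultures of clones 13, 14 and 15 and immortalized lines 13, 13a, 14 and 15. By title, lines 13 and 13a share the number 13. They were taken as separate lines in the main fit, in every SD and in the group comparisons. Per the labels, which give all samples the same protocol, cultures were grown in medium with 10% serum, with 20% serum after senescence until colonies grew out, and each immortalized line is therefore an outgrowth of selected cells. No source used here gives passage numbers or ages for the individual libraries.

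The libraries held 35273408 to 100441756 counts. WT and Prkd3-/- label libraries came in separate tables, so the genotype label and everything else that differs between the tables cannot be told apart. Prkd3 itself was at 69.2 to 93.8 CPM in the 6 WT libraries (counts per 1000000 counts of a library, its size scaled by edgeR's TMM) and at 33.6 to 61.0 CPM in the 7 libraries labelled Prkd3-/-. The 10 fibroblast markers summed to 30910 to 94970 CPM in every library. Their median Log2FC between the labels (Prkd3-/- label minus WT) was -0.86 in primary and -0.97 in immortalized MEFs. In primary MEFs 2 of the 10 were above 0, against 49.2% of all genes. In immortalized MEFs 1 was, against 55.1%, and edgeR called 0 of them in either state. The 10 macrophage markers summed to 659 to 679 CPM in WT primary, 33.5 to 98.2 CPM in WT immortalized, 90.8 to 992 CPM in Prkd3-/- label primary and 10.0 to 172 CPM in Prkd3-/- label immortalized MEFs. The part of this shift in the changes given below was not tested. In such bulk samples, fewer cells of a type and less RNA per cell cannot be told apart.

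Much of the sequence of the ribosomal protein mRNAs is shared with other genes, which bears on the values below: the WT table counted no multi-mapped reads, and the counting options of the Prkd3-/- label table are not given in the sources used here. A transcript of each gene was cut into all windows of 100 bases, the length of 1 read, and each window was searched for in the transcripts of all other annotated genes. The median member had 60.1% of its windows to itself, 34 members had under 50%, and 10 had all of them. In the annotation, 1101 pseudogene rows shared a stretch of 50 bases with 81 of the members; these are called partner rows. For 44 of the 86 members the partner rows together held more CPM than the row of the gene.

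**Figure D1:**
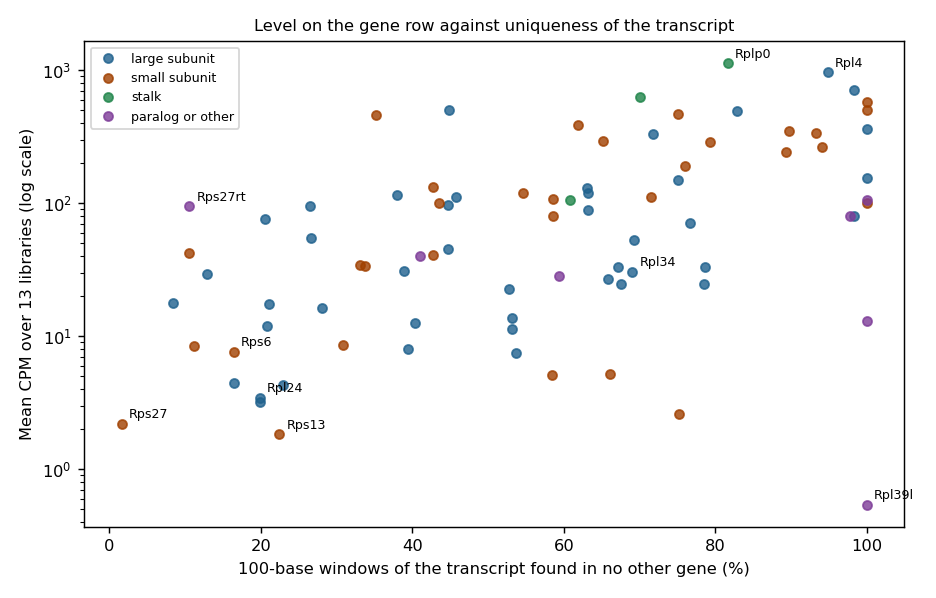
The plot sets the mean level on a gene's row over the 13 libraries (CPM, log axis) against the percentage of its 100-base windows found in no other gene, 1 point per member. The 18 members with under 30% had a median of 14.1 CPM and the 16 with at least 90% had a median of 130 CPM; Rpl10l and Rpl3l, with a mean of at most 0.0101 CPM, are not drawn.

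The level on the row went up with uniqueness. The median was 14.1 CPM for 18 members with under 30% unique windows, 39.9 CPM for 25 members from 30 to 60%, 119 CPM for 27 members from 60 to 90% and 130 CPM for 16 members above that. Over the 86 members, Spearman's rho was 0.42, as a description across genes that share libraries and families. Levels between genes were therefore read as levels on rows, not as amounts of mRNA.

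Rps6, the small subunit protein that S6 kinase phosphorylates, shows how far a row can be from its gene. Its row held 6.60, 7.26 and 5.99 CPM in the WT primary libraries, while Rps6-ps4, a processed pseudogene on chromosome 2, held 188.1, 190.7 and 189.9 CPM. The 750 bases of Rps6-ps4 aligned to the Rps6 transcript with 0 substitutions. Only 3.44% of the summed counts of Rps6 and its 14 partner rows lay on the row of Rps6.

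Rps27 is the same case between 2 members. Its row had 1.63% of windows to itself and stood at 1.52 to 2.90 CPM over the 13 libraries, while Rps27rt, annotated as protein-coding on chromosome 9, stood at 80.2 to 129 CPM. Over 341 aligned bases of the Rps27 and Rps27rt transcripts there were 0 substitutions.

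Per kilobase of annotated exon, averaged over the 13 libraries, the highest rows were Rplp1 (1253 CPM per kb) and Rplp0 (679 CPM per kb) of the stalk, followed by Rps15 (559 CPM per kb). The lowest rows among the 84 members that passed the filter on low counts were Rpl39l (0.650 CPM per kb), Rps13 (0.677 CPM per kb) and Rps27 (2.11 CPM per kb). Of these, Rps13 and Rps27 had few windows of their own, at 22.4% and 1.63%, whereas all windows of Rpl39l were unique. Exon length here is the union over all annotated transcripts, so it overstates the length of a short mRNA.

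The start of these genes was looked up in the RefSeq promoters of build GRCm38.p6, which matched 66 of the 86 symbols with 78 promoters. A TOP start, defined as C at the annotated start followed by 4 bases that are each C or T, was found on the strand of the gene in 14 of these 78 promoters (17.9%) and in 823 of all 32851 promoters (2.51%). Those of Rpl35, Rps6 and Rpl15 are shown with Rps26, which has no such run at its annotated base. Each stretch is 12 bases before and 18 bases from the annotated start, with the pyrimidine run at the start in capitals.
Rpl35 (chr2:39005114-39005143, minus strand): ccccgccctttcCTCTTTCTCTCgaaccag
Rps6 (chr4:86857350-86857379, minus strand): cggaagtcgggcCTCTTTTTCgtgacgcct
Rpl15 (chr14:18270969-18270998, minus strand): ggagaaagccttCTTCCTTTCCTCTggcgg
Rps26 (chr10:128626489-128626518, minus strand): gggcaagccgccggatcctctttcgagtct

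In WT MEFs, the median Log2FC after immortalization was 0.24 over the 14 members with a TOP start and 0.22 over 50 tested members with a promoter but without one. With the Prkd3-/- label the medians were 0.04 and 0.14. Between the labels (Prkd3-/- label minus WT) they were 0.22 and 0.25 in primary and 0.07 and 0.17 in immortalized MEFs. The annotated start is 1 position per entry and need not be the base at which transcription begins.

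The ribosomal protein genes took about 1 in every 100 counts. Their share of all counts was 1.09%, 1.06% and 1.09% in WT primary clones 3, 4 and 5 and 1.23%, 1.17% and 1.15% in the WT immortalized lines of the same clones. All WT immortalized libraries thus lay above all WT primary libraries, with a mean of 1.183% ± 0.0375 (SD, n = 3) against 1.08% ± 0.0163 (SD, n = 3). In the Prkd3-/- label libraries the share was 1.22%, 1.58% and 1.21% in primary clones 13, 14 and 15, and 1.66%, 1.38%, 1.35% and 1.38% in immortalized lines 13, 13a, 14 and 15. Here the groups overlapped, with a mean of 1.34% ± 0.208 (SD, n = 3) and 1.44% ± 0.143 (SD, n = 4).

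**Figure D2:**
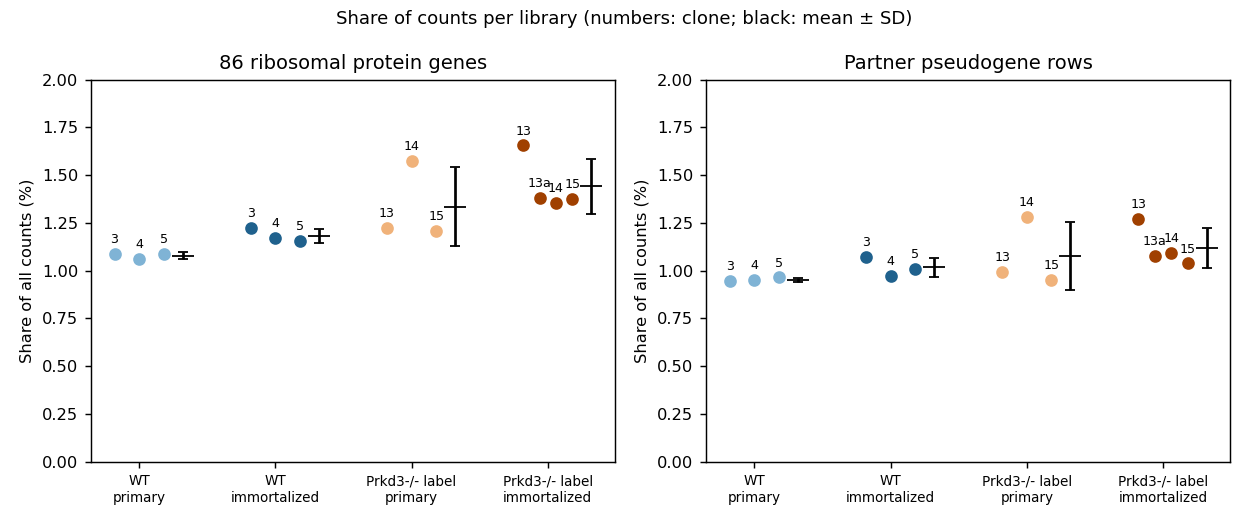
Share of all counts per library (percent, axis from 0), on the 86 ribosomal protein genes (left) and on their partner pseudogene rows (right), with clone numbers above the points and the group mean ± SD in black. Primary clone 14 and immortalized line 13 of the Prkd3-/- label stand highest in both panels.

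A pair of libraries stood apart from the rest of their groups. Primary clone 14 of the Prkd3-/- label (1.58%) was also the deepest library, had the lowest primary share of the 10 most abundant genes (6.35%) and had the highest macrophage marker sum (992 CPM). Immortalized line 13 (1.66%) had the lowest share of the 10 most abundant genes (6.03%) of all libraries, beside 17.8 CPM of macrophage markers. The part of these values in the share was not tested.

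The subunits took similar shares. In WT primary MEFs the large subunit held 0.436% ± 0.0121, the small subunit 0.452% ± 0.00622 and the 3 stalk genes 0.157% ± 0.00361 of all counts (SD, n = 3), and in WT immortalized MEFs 0.485% ± 0.0119, 0.493% ± 0.0221 and 0.174% ± 0.00357. Each of these 3 shares was higher in the immortalized lines, without overlap for any of them. The remaining 9 genes went the other way in the mean, from 0.0344% ± 0.000761 to 0.0311% ± 0.00214. Partner rows held a further 0.954% ± 0.0105 of counts in WT primary and 1.02% ± 0.0490 in WT immortalized MEFs.

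The first comparison asked how expression differs between primary and immortalized WT MEFs. The ribosomal protein genes were shifted together by a small amount: the median Log2FC was 0.24 over the 84 tested members against 0.04 over all 19836 genes tested, and 68 of 84 members were above 0 (81.0%) against 54.2% of all genes. With an adjusted p-value under 0.05 (edgeR), 0 members were called higher, where 0.696% of all genes were, and 1 was called lower, where 4.57% of all genes were. At an unadjusted p under 0.05, 27 members were higher (32.1%) against 8.26% of all genes. With the clone number as a replicate block, 12 were (14.3%), against 3.94% of all genes. DESeq2 called 11 members higher (13.1%), against 2.85% of the genes for which it gave an adjusted p-value. DESeq2 also called 1 lower, against 7.51% of these genes. At an unadjusted p under 0.05 in edgeR, 1 member was lower, against 11.4% of all genes. Under the study's stricter rule, an adjusted p-value under 0.01 with an absolute Log2FC of at least 1, edgeR called 0 members, where 1.82% of all genes were called. DESeq2 called 1 member under this rule, Rpl39l, which was lower. The share of all genes for DESeq2 under this rule is not given here.

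The size of the shift depended on the scaling. With library size alone, the median of all genes moved from 0.04 to -0.10 and that of the members from 0.24 to 0.10, so the members lay above all genes under both scalings. The 14 tested members with at least 90% unique windows had a median of 0.10. The groups of libraries did not overlap for 42 of 84 members higher and 2 lower (2.38%), against 14% and 17.3% of all genes tested.

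**Figure D3:**
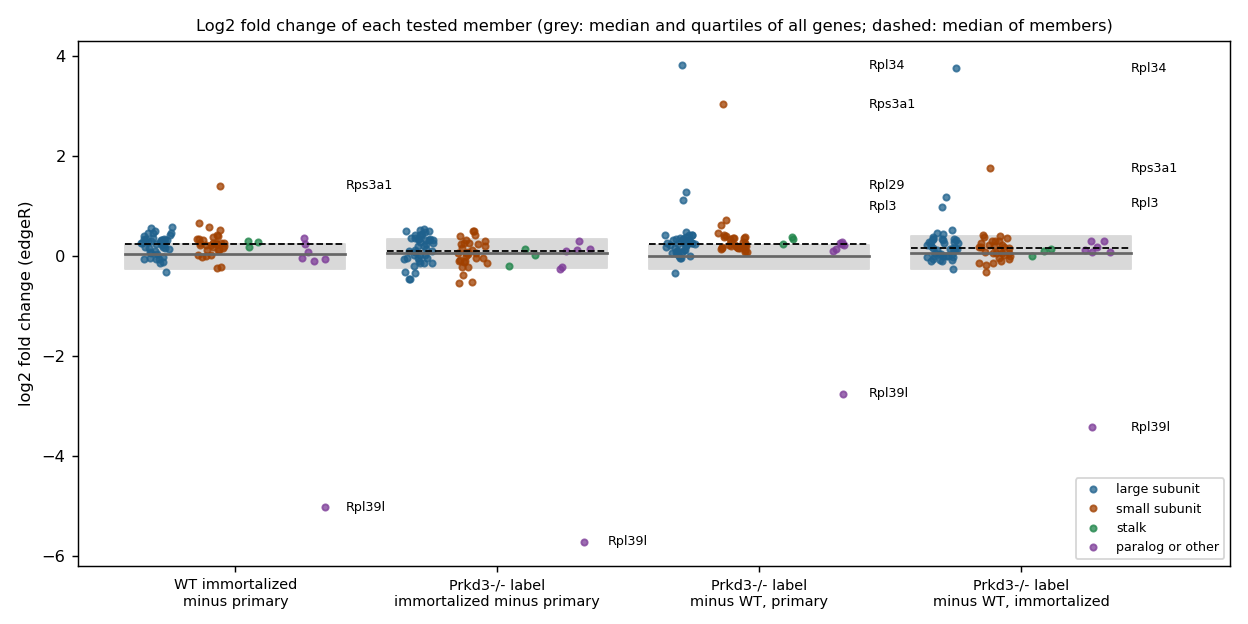
Log2FC (edgeR, log2 scale) of each tested member in 4 comparisons, coloured by class, with the median and quartiles of all genes tested in grey and the median of the members dashed. In WT the members' median (0.24) lies above that of all genes (0.04), Rpl39l is the lowest point in each comparison, and Rpl34 is the highest in both comparisons of the genotype labels.

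Of the stalk, Rplp0, which anchors the P1 and P2 proteins to the large subunit, stood at 937, 936 and 965 CPM in WT primary and at 1221, 1182 and 1086 CPM in WT immortalized MEFs. The groups did not overlap, but the difference did not pass the test in edgeR (Log2FC 0.30 ± 0.12 (SE), adjusted p-value 0.262) and did in DESeq2 (adjusted p-value 0.0409). Rplp1 went from 514 ± 20.6 to 621 ± 21.9 CPM and Rplp2 from 93.6 ± 3.34 to 106 ± 8.22 CPM (SD, n = 3), also without overlap.

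Among large subunit genes, the smallest p-values for a higher level belonged to Rpl15 and Rpl21. Rpl15 stood at 55.7, 51.2 and 51.5 CPM in WT primary and at 66.4, 70.9 and 63.0 CPM in WT immortalized MEFs (Log2FC 0.34 ± 0.08, adjusted p-value 0.0954). Rpl21 stood at 85.6, 64.4 and 67.6 CPM and at 100.2, 107.2 and 100.7 CPM (Log2FC 0.50 ± 0.13, adjusted p-value 0.101). In both genes every immortalized line was above every primary clone, and neither passed the test in edgeR, while DESeq2 called both higher (adjusted p-values 0.0357 and 0.0349). Rpl15 also passed in edgeR without WT line 5 (adjusted p-value 0.0408). With partner rows summed, the Log2FC was 0.22 ± 0.10 for Rpl15 (adjusted p-value 0.313) and 0.49 ± 0.12 for Rpl21 (adjusted p-value 0.0862).

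Rpl5 and Rpl11, which together with 5S rRNA bind and inhibit Mdm2, did not move alike. Rpl5 was at 19.6, 19.7 and 18.5 CPM in WT primary and 20.7, 22.6 and 20.99 CPM in WT immortalized MEFs (Log2FC 0.15 ± 0.09, adjusted p-value 0.403), without overlap. Rpl11 was at 12.6, 15.1 and 14.7 CPM and at 12.7, 11.2 and 10.2 CPM (Log2FC -0.31 ± 0.13, adjusted p-value 0.272), with overlapping groups. Both rows held under 8% of the counts of their families, at 7.49% and 7.90%.

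Of the small subunit, Rps26, which lies at the mRNA exit channel, had the smallest p-value of all members with a higher level. It stood at 146, 147 and 149 CPM in WT primary and at 202, 277 and 220 CPM in WT immortalized MEFs, so that the spread lay almost entirely in the immortalized lines. Its Log2FC of 0.66 ± 0.14 (adjusted p-value 0.0556) missed the threshold in edgeR. It passed in DESeq2 and in limma with a weight per state, where it was the 1 member called higher, against 0.797% of all genes. Rps26 also passed in edgeR without WT line 3, 4 or 5 (adjusted p-values 0.0200, 0.03495 and 0.0458). Rpsa, the laminin-receptor protein of the small subunit, stood at 284, 279 and 298 CPM and at 414, 420 and 298 CPM (Log2FC 0.39 ± 0.16, adjusted p-value 0.250), and line 5 was level with the primary clones. Without line 5, Rpsa passed in edgeR (adjusted p-value 0.0187). Rps6 was at 6.60, 7.26 and 5.99 CPM and at 8.69, 7.57 and 7.48 CPM (Log2FC 0.26 ± 0.13, adjusted p-value 0.366), with its own row apart. With its partner rows summed the groups overlapped (Log2FC 0.22 ± 0.14, adjusted p-value 0.445).

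**Figure D4:**
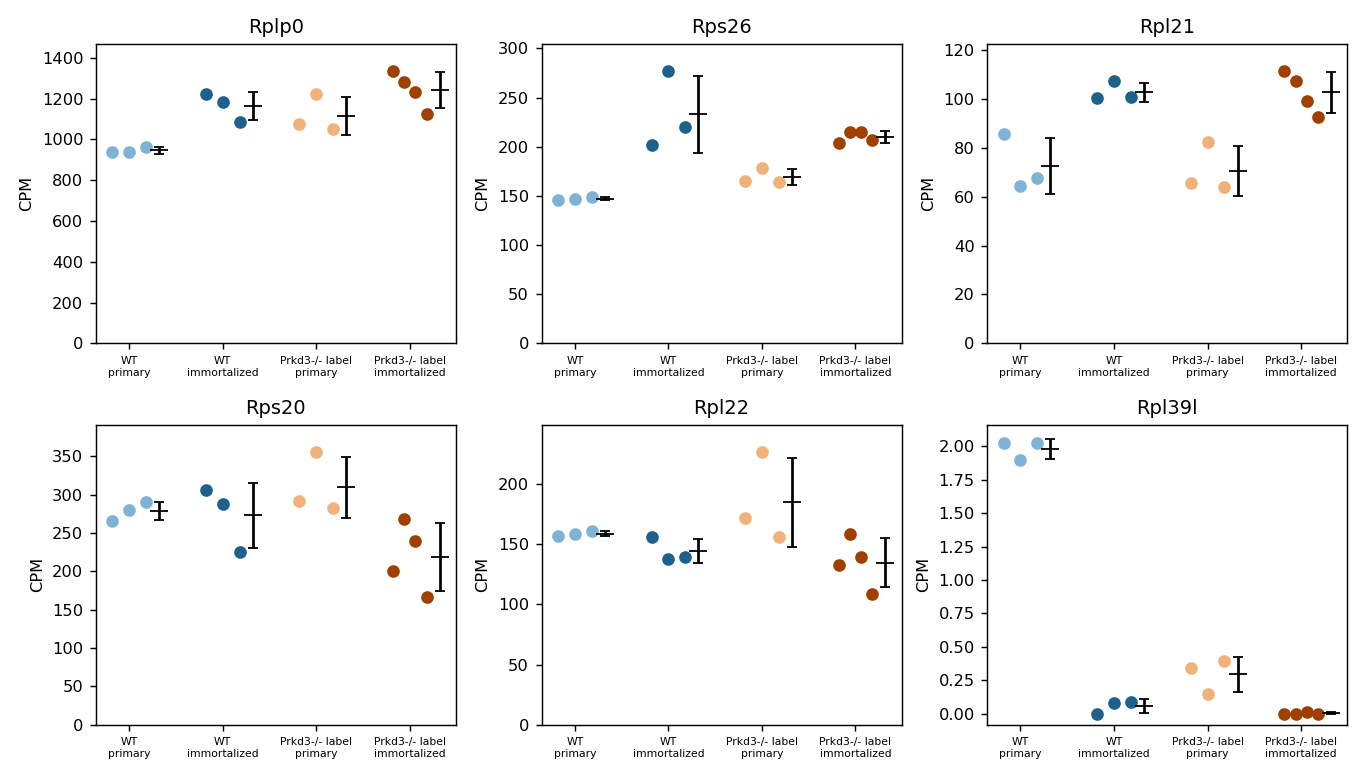
CPM per library (linear axes, group mean ± SD in black) for Rplp0, Rps26, Rpl21, Rps20, Rpl22 and Rpl39l in the 4 groups. For Rplp0, Rps26 and Rpl21 every WT immortalized line lies above every WT primary clone, and Rpl39l lies near 2 CPM in WT primary MEFs only, with all immortalized lines under 0.1 CPM.

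Rpl39l was the 1 member that edgeR called in WT MEFs, and DESeq2 and limma called it too. This autosomal paralog of the X-linked Rpl39, known for its expression in the testis, stood at 2.02, 1.895 and 2.02 CPM in WT primary and at 0, 0.0847 and 0.0918 CPM in WT immortalized MEFs. Its counts fell from 132, 174 and 113 to 0, 5 and 6, a Log2FC of -5.03 ± 0.78 (adjusted p-value 0.0220). With the clone number as a replicate block, 0 members were called (1.08% of all genes), and Rpl39l had a Log2FC of -5.18 and an adjusted p-value of 0.133. Without any 1 of the primary clones 3, 4 and 5 its adjusted p-value was 0.112, 0.117 and 0.113. Of the 10 macrophage markers, 9 were called lower in the same comparison, and their part in this result was not tested.

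Rpl39 itself went the other way, at 72.5, 54.9 and 60.4 CPM in WT primary and 90.3, 80.6 and 88.3 CPM in WT immortalized MEFs (Log2FC 0.46 ± 0.13, adjusted p-value 0.115). Per kilobase, Rpl39 was at 43.6 ± 6.27 and 60.2 ± 3.57 CPM and Rpl39l at 2.38 ± 0.0889 and 0.0708 ± 0.0614 CPM (SD, n = 3). Over 168 aligned bases their transcripts differed at 25, so reads of the pair were separable.

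The second comparison asked the same of the MEFs labelled Prkd3-/-. The median Log2FC was 0.10 over 84 tested members against 0.07 over all 20298 genes, and 54 of 84 members were above 0 (64.3%) against 56.9% of all genes. No member was called in either direction in edgeR, where 0 of all genes were called (0.0%). At an unadjusted p under 0.05, 4 members were higher (4.76%) and 2 lower (2.38%), against 2.22% and 4.34% of all genes, and DESeq2 called 1 member lower, Rpl39l, against 1.21% of genes with an adjusted p-value. The median over members rested on the pair of libraries with the highest shares: it was 0.24 without primary clone 14 and -0.00 without immortalized line 13.

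Large subunit genes had a median of 0.20, small subunit genes of 0.05 and the stalk of 0.01. Rpl21 stood at 65.5, 82.4 and 64.0 CPM in primary clones 13, 14 and 15 and at 111, 107, 99.2 and 92.6 CPM in immortalized lines 13, 13a, 14 and 15 (Log2FC 0.53 ± 0.17, adjusted p-value 0.650), and Rps15 at 266, 341 and 274 CPM and at 417, 385, 480 and 386 CPM (Log2FC 0.50 ± 0.18, adjusted p-value 0.710). For both genes, every immortalized line was above every primary clone.

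Among the lower members, Rps20 stood at 291, 355 and 282 CPM in primary clones and at 200.9, 268.1, 239.4 and 166.4 CPM in immortalized lines (Log2FC -0.51 ± 0.22, adjusted p-value 0.751). Rps15a stood at 125, 171 and 118 CPM and at 122, 98.6, 69.3 and 95.2 CPM (Log2FC -0.53 ± 0.23, adjusted p-value 0.768). Only for Rps20 of this pair were the groups apart. In WT MEFs the same genes had a Log2FC of -0.03 ± 0.14 and -0.01 ± 0.16.

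Rpl39l stood at 0.346, 0.148 and 0.393 CPM in Prkd3-/- label primary clones, 30, 16 and 14 counts, and at 0 in immortalized lines 13, 13a and 15. The remaining line 14 had 1 count (0.0156 CPM). Pooled over libraries, the level was 68.6 times higher in primary MEFs, with an exact 95% interval of 11.8 to 2752 for counting error alone. The fitted Log2FC of -5.72 ± 0.93 (adjusted p-value 0.296) depends on the prior count. Taking the genotype labels together, every one of the 7 immortalized libraries was below every primary library.

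Of the members followed in every comparison, Rplp0 stood at 1073, 1221 and 1051 CPM in primary clones and at 1334, 1281, 1230 and 1126 CPM in immortalized lines (Log2FC 0.14 ± 0.17, adjusted p-value 0.889). Rpsa stood at 346, 410 and 357 CPM and at 565, 494, 434 and 474 CPM (Log2FC 0.39 ± 0.17, adjusted p-value 0.768), without overlap. Rpl11 stood at 14.2, 15.1 and 14.6 CPM and at 13.99, 12.9, 8.43 and 7.61 CPM (Log2FC -0.46 ± 0.27, adjusted p-value 0.830), without overlap. Rpl5 had a Log2FC of 0.34 ± 0.23 and Rps6 of 0.09 ± 0.25, both with overlapping groups. The groups did not overlap for 12 of 84 members higher (14.3%) and 4 lower (4.76%), against 4.19% and 5.26% of all genes.

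The change with immortalization was then compared between the genotype labels in 1 model of 13 libraries. The median difference (Prkd3-/- label minus WT) was -0.10 over the members and 0.06 over all 21197 genes, and 27 of 84 members were above 0 (32.1%) against 55.4% of all genes. No member was called, nor was any gene (0.0%), and at an unadjusted p under 0.05 there was 1 member (lower), against 1.46% of all genes. DESeq2 called 0 members as well, against 0.125% of genes with an adjusted p-value. This member was Rps3a1 (difference in Log2FC -1.27 ± 0.51, unadjusted p 0.0283, adjusted p-value 1.0), named after its values were seen, and with its partner rows summed the difference was -0.02. The median over members was 0.02 without primary clone 14 of the Prkd3-/- label and 0.02 with library size alone, where all genes stood at 0.18.

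The comparisons of the genotype labels at each state share the libraries of the preceding ones, and whether both tables were counted with the same options is not known. In primary MEFs, 3 members were called higher with the Prkd3-/- label (3.57%), where 0.123% of all 21197 genes were, and 0 lower, where 0.245% were. They were Rpl34, Rps3a1 and Rpl29, which are named here because their values were seen. In immortalized MEFs, 2 members were called higher, Rpl34 and Rpl3 (2.38%), where 0.231% of all genes were, and 0 lower, where 0.462% were. At an unadjusted p under 0.05, 1 member was lower in primary and 1 in immortalized MEFs, against 2.66% and 6.63% of all genes. DESeq2 called 4 members higher in each state, Rpl29, Rpl3, Rpl34 and Rps3a1, against 0.351% and 2.32% of genes with an adjusted p-value, and Rpl39l lower, against 0.607% and 2.25%. Under the study's stricter rule edgeR called Rpl34 and Rps3a1 higher in primary and Rpl34 in immortalized MEFs, against 0.0566% and 0.0755% of all genes. Under the same rule DESeq2 called Rpl29, Rpl3, Rpl34 and Rps3a1 higher and Rpl39l lower in primary MEFs. In immortalized MEFs it called Rpl3, Rpl34 and Rps3a1 higher and no member lower. The shares of all genes for DESeq2 under this rule are not given here. The median Log2FC over members was 0.24 in primary and 0.15 in immortalized MEFs, against -0.01 and 0.06 over all genes; with library size alone the immortalized medians were 0.31 and 0.22.

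Rpl34, a large subunit protein, stood at 4.16, 3.54 and 4.31 CPM in WT primary and 4.45, 4.18 and 2.86 CPM in WT immortalized MEFs. In the Prkd3-/- label libraries it stood at 50.7, 69.4 and 48.8 CPM in primary clones and at 69.9, 45.6, 45.3 and 45.5 CPM in immortalized lines. No library of either label came near the other, with a Log2FC of 3.81 ± 0.26 in primary (adjusted p-value 3.02e-05) and 3.75 ± 0.25 in immortalized MEFs (adjusted p-value 2.07e-05).

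The partner row Rpl34-ps1 held most of the family's counts in WT. It stood at 78.7, 84.0 and 82.3 CPM in WT primary and at 68.3, 77.6 and 61.3 CPM in Prkd3-/- label primary MEFs (Log2FC -0.24 ± 0.17, adjusted p-value 0.997). With Rpl34 and its 9 partner rows summed, the levels were 88.1 ± 2.52 and 128 ± 19.8 CPM (SD, n = 3) in primary MEFs, and the difference no longer passed the test (Log2FC 0.54 ± 0.19, adjusted p-value 0.726). In immortalized MEFs the summed Log2FC was 0.44 ± 0.18 (adjusted p-value 0.276).

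The 354 bases of Rpl34-ps1 aligned to the Rpl34 transcript with 2 substitutions, T222C and C408G, counted from the first base of the Rpl34 transcript with the base of Rpl34 first. The first of them is shown in capitals in 60 bases of GENCODE M21 transcripts on GRCm38, a coding stretch of Rpl34 and the matching stretch of the pseudogene.
Rpl34 (chr3:130729056-130729115, minus strand): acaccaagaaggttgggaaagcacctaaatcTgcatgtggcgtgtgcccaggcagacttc
Rpl34-ps1 (chr6:71124710-71124769, plus strand): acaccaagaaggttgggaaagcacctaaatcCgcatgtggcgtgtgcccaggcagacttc

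Rps3a1, the small subunit protein eS1, lay opposite to its partner. It stood at 19.8, 19.6 and 25.6 CPM in WT primary and 163, 208 and 160 CPM in Prkd3-/- label primary MEFs (Log2FC 3.03 ± 0.40, adjusted p-value 0.00648). Rps3a3, a processed pseudogene on chromosome 13, stood at 193, 189 and 186 CPM and at 31.2, 29.5 and 22.9 CPM in the same libraries (Log2FC -2.76 ± 0.17, adjusted p-value 1.99e-05). Neither row overlapped between the labels, and they lay on opposite sides. Rps3a1 summed with its 9 partner rows was at 280 ± 1.70 and 307 ± 44.3 CPM (SD, n = 3), a Log2FC of 0.13 ± 0.21 (adjusted p-value 0.998).

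The WT immortalized lines were split on this row. Rps3a1 stood at 75.6 and 74.1 CPM in lines 3 and 4 but at 22.6 CPM in line 5, within the range of the WT primary clones, and at 261, 164, 166 and 187 CPM in the Prkd3-/- label lines. Rps3a3 stood at 151, 174 and 156 CPM in WT lines 3, 4 and 5. The Log2FC of Rps3a1 between the labels in immortalized MEFs was 1.76 ± 0.37 (adjusted p-value 0.0595), and 0.12 ± 0.19 with partner rows summed.

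The 795 bases of Rps3a3 aligned to the Rps3a1 transcript with 9 substitutions, and the 792 bases of a second pseudogene, Rps3a2, with 4. The stretch with T349C (both pseudogenes) and T393C (Rps3a3), counted from the first base of the Rps3a1 transcript, is shown with these positions in capitals, since it tells the 3 rows apart.
Rps3a1 (chr3:86141326-86141385, minus strand): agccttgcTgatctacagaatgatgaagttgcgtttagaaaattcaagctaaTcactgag
Rps3a2 (chr14:88123542-88123601, minus strand): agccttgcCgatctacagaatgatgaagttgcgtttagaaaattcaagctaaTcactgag
Rps3a3 (chr13:108670810-108670869, plus strand): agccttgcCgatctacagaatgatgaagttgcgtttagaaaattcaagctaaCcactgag

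**Figure D5:**
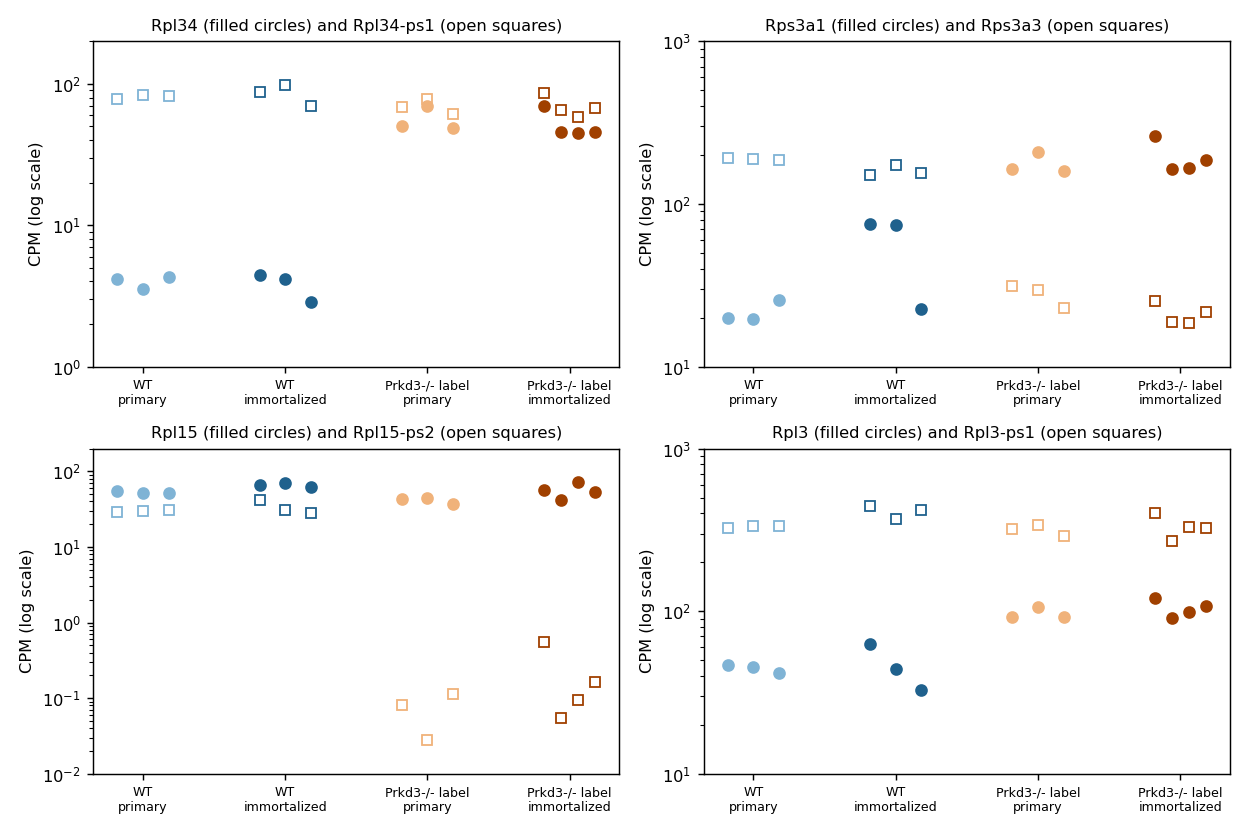
CPM per library (log axes) of 4 members (filled circles) and 1 pseudogene partner each (open squares). Rpl34 and Rps3a1 are higher in all libraries with the Prkd3-/- label while Rps3a3 is lower, Rpl15-ps2 is near 30 CPM in WT and under 1 CPM with the Prkd3-/- label, and Rpl3-ps1 overlaps between the labels.

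Rpl3, the large subunit protein beside the peptidyl transferase center, stood at 46.4, 45.1 and 41.9 CPM in WT primary and 92.5, 107 and 91.6 CPM in Prkd3-/- label primary MEFs (Log2FC 1.12 ± 0.21, adjusted p-value 0.0541). In immortalized MEFs it stood at 63.0, 43.9 and 32.6 CPM and at 121, 91.2, 98.7 and 108 CPM (Log2FC 1.17 ± 0.20, adjusted p-value 0.0245). Its partner Rpl3-ps1 held several times more, 332 ± 5.04 CPM in WT primary and 316 ± 24.1 CPM in Prkd3-/- label primary MEFs (SD, n = 3). With 26 partner rows summed, the Log2FC was 0.17 ± 0.16 in primary and -0.04 ± 0.15 in immortalized MEFs. The 1210 bases of Rpl3-ps1 aligned to the Rpl3 transcript with 2 substitutions, C137A and T866C, counted from the first base of the Rpl3 transcript.

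Rpl29, a large subunit protein with many pseudogenes, stood at 57.8, 54.0 and 57.4 CPM in WT primary and 126, 156 and 129 CPM in Prkd3-/- label primary MEFs (Log2FC 1.28 ± 0.21, adjusted p-value 0.0240). In immortalized MEFs it stood at 84.3, 63.4 and 105 CPM and at 219, 149, 152 and 149 CPM (Log2FC 0.99 ± 0.20, adjusted p-value 0.0507). With its 81 partner rows summed, the Log2FC was 1.04 ± 0.20 in primary (adjusted p-value 0.0743) and 0.84 ± 0.19 in immortalized MEFs (adjusted p-value 0.0850). Unlike Rpl34, Rps3a1 and Rpl3, it thus kept most of its difference after summing, though it no longer passed the threshold in primary MEFs. The summed groups of Rpl29 stayed apart in both states, as did those of Rpl34.

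With partner rows summed, 1 member was called between the labels, Rpl15, which was named after its values were seen. It was lower in both states, where 0.212% of all genes were called lower in primary and 0.396% in immortalized MEFs. Its own row was at 52.8 ± 2.51 CPM in WT primary and 41.5 ± 4.05 CPM in Prkd3-/- label primary MEFs (SD, n = 3). The summed family was at 122 ± 1.22 and 47.8 ± 4.18 CPM (Log2FC -1.35 ± 0.18, adjusted p-value 0.00818) and in immortalized MEFs at 142 ± 15.1 CPM (n = 3) and 64.1 ± 13.04 CPM (n = 4), a Log2FC of -1.15 ± 0.16 (adjusted p-value 0.00770).

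Most of the difference lay on 2 pseudogene rows, beside the lower level on the row of Rpl15 itself. Rpl15-ps2 stood at 29.2, 29.8 and 31.3 CPM in WT primary and at 0.0807, 0.0277 and 0.112 CPM in Prkd3-/- label primary MEFs (Log2FC -8.79 ± 0.86, adjusted p-value 0.000775). Gm10020 stood at 31.1, 33.0 and 32.7 CPM and at 2.32, 2.05 and 1.91 CPM (Log2FC -3.94 ± 0.25, adjusted p-value 2.09e-05). In immortalized MEFs, Rpl15-ps2 stood at 27.9 to 41.4 CPM in WT and 0.0548 to 0.554 CPM with the Prkd3-/- label, and Gm10020 at 30.04 to 40.9 and 2.69 to 5.19 CPM. For both rows the labels did not overlap in either state, and only Rpl15-ps2 came near 0.

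A broader difference between the labels was small. In primary MEFs 78 of 84 members were above 0 (92.9%) against 49.2% of all genes, and the groups did not overlap for 41 members higher (48.8%) and 2 lower (2.38%), against 15.3% and 18.4% of all genes. In immortalized MEFs 62 of 84 were above 0 (73.8%) against 55.1%, and 6 were apart and higher (7.14%) and 0 lower, against 4.43% and 4.17% of all genes. Of the followed members, Rpsa was higher by a Log2FC of 0.37 ± 0.17 in primary and 0.38 ± 0.16 in immortalized MEFs (adjusted p-values 0.997 and 0.281). Rplp0 was at 0.24 ± 0.14 and 0.10 ± 0.13, and Rpl5, Rpl11 and Rps6 lay between -0.08 and 0.33 in both states.

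The paralog pairs held different ratios. Rps27l, a p53 target, was at 125 ± 2.75 CPM per kb in WT primary and 116 ± 18.8 CPM per kb in WT immortalized MEFs, and in the Prkd3-/- label at 149 ± 17.5 (n = 3) and 125 ± 26.3 CPM per kb (n = 4). It had no shared window with Rps27, from which it differed at 45 of 214 aligned bases. Its Log2FC with immortalization was -0.11 ± 0.13 and -0.26 ± 0.21 (adjusted p-values 0.699 and 0.855).

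Rpl22 and Rpl22l1, of which the first is known to repress the second, lay on opposite sides of 0, and neither passed the test in edgeR or DESeq2. In WT MEFs, Rpl22 was at 157, 159 and 161 CPM in primary and 156, 138 and 139 CPM in immortalized libraries (Log2FC -0.14 ± 0.09, adjusted p-value 0.453), apart by under 1 CPM at the closest. Rpl22l1 was at 25.2, 24.1 and 21.8 CPM and at 40.5, 24.6 and 25.7 CPM (Log2FC 0.35 ± 0.21, adjusted p-value 0.427). With the Prkd3-/- label the Log2FC was -0.47 ± 0.21 for Rpl22 and 0.29 ± 0.27 for Rpl22l1 (adjusted p-values 0.769 and 0.872).

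The rows of Rpl36a and Rpl36al were both low in uniqueness, at 16.4% and 41.0%. Per kilobase, Rpl36al stood above Rpl36a in WT primary MEFs, at 24.7 ± 0.718 against 1.95 ± 0.125 CPM (SD, n = 3), and their Log2FC with immortalization was 0.24 ± 0.08 and 0.36 ± 0.15 (adjusted p-values 0.185 and 0.262). Rpl7 had 105 ± 2.35 CPM per kb and Rpl7l1 21.5 ± 0.524 CPM per kb in WT primary MEFs, with a Log2FC of 0.28 ± 0.11 and -0.04 ± 0.14 (adjusted p-values 0.234 and 0.911). Rps4x, the X-linked small subunit gene whose counterpart Rps4l is annotated as a pseudogene and is no member, had a Log2FC of 0.33 ± 0.10 (adjusted p-value 0.152 in edgeR) and was among those DESeq2 called higher. Rps19bp1 stood at 9.37 to 19.0 CPM in all libraries.

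The testis and muscle paralogs were near 0. Rpl10l had 1 count in all 13 libraries together and Rpl3l had 10, and neither passed the filter on low counts. In the same libraries Rpl10 was at 13.4 to 26.7 CPM and Rpl3 at 32.6 to 121 CPM. Neither paralog was detectable above the limit of 3 counts per library, which is 0.0277 to 0.0842 CPM.

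The fixed lists of related genes are given as counts in either direction where the direction is not named. Over all genes, 19.7% in WT and 6.56% with the Prkd3-/- label had an unadjusted p under 0.05, DESeq2 called 10.4% and 1.43% of those it tested, and 54.2% and 56.9% were above 0 with immortalization. Of 19 TOP mRNAs that encode other proteins, mostly translation factors, 17 were above 0 in WT (median 0.33), and 1 was called higher, the initiation factor Eif2s3x (Log2FC 0.59 ± 0.11, adjusted p-value 0.0446); 10 had an unadjusted p under 0.05 and DESeq2 called 8. With the Prkd3-/- label 17 were above 0 too (median 0.25), with 0 called by either tool and 1 at an unadjusted p under 0.05.

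Ribosome assembly factors had larger medians than the ribosomal proteins with the Prkd3-/- label. All 35 had a Log2FC above 0 there, with a median of 0.53, and 30 of 35 in WT with a median of 0.25, but edgeR called 0 in either. At an unadjusted p under 0.05 there were 13 in WT and 0 with the Prkd3-/- label, and DESeq2 called 2 and 0. The difference of the changes was above 0 for all 35 (median 0.24), with 0 called by either tool and 0 at an unadjusted p under 0.05. Ncl, which encodes nucleolin, was at 0.97 ± 0.44 (adjusted p-value 0.780) with the Prkd3-/- label, and Rpf2, which loads the 5S particle with Rpl5 and Rpl11, at 0.74 ± 0.18 in WT (adjusted p-value 0.0902). The level of Ncl was 481 ± 104 CPM (SD, n = 3) in Prkd3-/- label primary and 954 ± 541 CPM (SD, n = 4) in immortalized MEFs, a wide spread between lines. Whether a single line carried the shift of this list was not tested. Among the 12 RNA polymerase I genes 10 and 9 were above 0 (medians 0.14 and 0.18), with 0 called by either tool and 2 and 1 at an unadjusted p under 0.05.

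Of 14 mTOR and MYC regulators, 11 were above 0 in WT and 10 with the Prkd3-/- label (medians 0.15 and 0.09), with 0 called in edgeR, 1 and 0 in DESeq2, and 2 at an unadjusted p under 0.05 in each. Larp1, which binds TOP mRNAs, had a Log2FC of 0.43 ± 0.11 in WT (adjusted p-value 0.0889), and Mtor one of -0.67 ± 0.23 with the Prkd3-/- label (adjusted p-value 0.669). The 78 mitochondrial ribosomal proteins, which build the separate ribosome of that organelle, had a median of 0.05 in WT and 0.13 with the Prkd3-/- label, with 0 called in edgeR, 1 and 0 in DESeq2, and 8 and 3 at an unadjusted p under 0.05. Between the labels in immortalized MEFs edgeR called 1 of them higher, Mrps6 (Log2FC 1.04 ± 0.15, adjusted p-value 0.00860), and DESeq2 called 7, against 4.57% of all genes in either direction. At an unadjusted p under 0.05 there were 13, against 15.2% of all genes. Between the labels, 70 of these 78 were above 0 in primary and 69 in immortalized MEFs, against 49.2% and 55.1% of all genes. In the same order, 33 and 34 of the 35 assembly factors and 17 and 14 of the 19 other TOP mRNAs were above 0. So were 9 and 11 of the 12 RNA polymerase I genes, and 7 and 6 of the 14 mTOR and MYC regulators. None of Mdm2, Trp53, Cdkn1a and Cdkn2a was called with immortalization by either tool, and 0 in WT and 1 with the Prkd3-/- label had an unadjusted p under 0.05. Here Cdkn2a had 0.98 ± 0.48 in WT (adjusted p-value 0.341) and Cdkn1a -1.05 ± 0.42 with the Prkd3-/- label (adjusted p-value 0.730).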

How the data were processed

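Poly-A RNA of 13 MEF cultures was sequenced by the authors as paired 100-base reads, mapped to mm10 (GRCm38) with STAR 2.7.10a, and deposited as raw counts per gene, assigned with featureCounts of Subread 2.0.6 on Ensembl release 102. The WT file header shows that read pairs were counted without strand and without multi-mapped reads. The Prkd3-/- label table carries no command line, and its counting options are not given in the sources used here.

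From these counts, genes were filtered with filterByExpr, scaled by TMM and tested with edgeR 4.0.16 (quasi-likelihood, R 4.3.3, Benjamini-Hochberg over all genes tested). WT libraries were fitted alone, Prkd3-/- label libraries alone, and all 13 together for the difference of changes and the genotype labels. SE is the Log2FC over the root of F. CPM use the TMM scaling over all 13 libraries. DESeq2 1.42.0 and limma 3.58.1 were alternatives; summing partner rows and keeping members with at least 90% unique windows were alternatives added after seeing the data. Symbols matched 99.4% of gene IDs. All columns of the count tables were mapped to samples. The tests were checked on simulated data with 200 changed genes, each with an absolute Log2FC of at least 1. The spread was simulated alike for all groups, and edgeR fits a single spread per gene over the groups of a fit. In the data the spread was not alike. The 10 fibroblast markers summed to 57030 to 59330 CPM in WT primary and 40840 to 94970 CPM in WT immortalized libraries. Of the fits used, limma with a weight per state lets the spread differ between states. Smaller changes, such as the median over members, were not simulated, so the check cannot bear on them. Intervals of counts cover counting error only, and p-values measure the spread between cultures, with lines 13 and 13a taken as separate cultures.

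WT lines and primary clones of one number derive from one embryo per the study's methods, so the numbers pair them, although same-numbered deviations correlated at only -0.04, 0.04 and -0.05. For the Prkd3-/- label the clone number alone links them (0.16, -0.30 for line 13a, 0.09 and 0.04). The fit without this block is the main one.

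Members and lists were chosen with earlier results of these data known. Named were Rplp0, Rpl5, Rpl11, Rps6, Rpsa, the paralog pairs, the 3 members with the smallest p in each direction per immortalization comparison, the 3 highest and lowest per kilobase, and at most 2 genes per list. Some results that this rule names are not reported here. Transcripts came from GENCODE M21 and promoters from RefSeq (GRCm38.p6). A call is an adjusted p-value under 0.05; the stricter rule is an adjusted p-value under 0.01 with an absolute Log2FC of at least 1.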

Additional observations from a re-analysis of the deposited data

Results flagged for a closer look

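Chance flags about 1 in 20 groups, and 29 values were examined in the 4 immortalized lines of the Prkd3-/- label, the only group of more than 3 libraries. In line 13, the share of counts on ribosomal protein genes (1.66%), the level of Rpl29 (219 CPM) and that of Rpl34 (69.9 CPM) lay farther from the other lines than Dixon's limit for 4 samples allows. In line 14, Rpl39l had 1 count (0.0156 CPM) where the other lines had 0.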

How the results depend on the processing

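In WT, edgeR called 1 member. DESeq2 called 12, limma with a weight per state 2 and the fit with the clone number as replicate block 0. The study's thresholds gave 0 in edgeR and 1, Rpl39l, in DESeq2. Without a WT immortalized line 3, 4 or 5 the main edgeR count was 5, 3 and 8, and without any WT primary clone 0 (range 0 to 8). How many of all genes these leave-out fits called is not given here, so the counts cannot be read as particular to the members. The WT median of 0.24 was 0.10 with library size alone, 0.10 over members with at least 90% unique windows, and 0.17 to 0.28 with a library left out. The share ratio in WT was 1.13 without the 10 most abundant genes in the total, 1.15 per kilobase, 1.06 over the members with at least 90% unique windows, and 1.08 to 1.11 with a library left out. With the Prkd3-/- label DESeq2 called 1 member, Rpl39l, which also met the study's thresholds there, against 0 in edgeR. No left-out library gave a call, the median ranged from -0.00 (without immortalized line 13) to 0.24 (without primary clone 14), and the share ratio from 1.03 to 1.19. The replicate block left the edgeR count at 0 and changed no other call of a named member. The median difference of the changes ranged from -0.22 to 0.02.

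Between the labels in primary MEFs, 3 members were called; DESeq2 called 5, partner rows summed gave 1, members with at least 90% unique windows 0, and leaving out a library 1 to 4 (medians 0.12 to 0.31). The call of Rpl29 was lost without any 1 of the 6 primary libraries (adjusted p-values 0.0737 to 0.166) and that of Rps3a1 without WT primary clone 3 or 4 (0.0600 and 0.0636). In immortalized MEFs 2 were called; DESeq2 called 5, library size alone 4, partner rows summed 1, members with at least 90% unique windows 0, and leaving out a library 1 to 3 (medians 0.07 to 0.19). Rpl3 lost its call without Prkd3-/- label line 15 or primary clone 15, WT line 4 or 5, or any WT primary clone (0.05003 to 0.0945). Rpl34 was called with every library left out. For both label comparisons, how many of all genes were called with library size alone or a library left out is not given here.

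Some changes turned sign. In WT, Rpl3 was -0.0812 with library size alone and ranged from -0.21 to 0.27 with a library left out, Rpl10 from -0.14 to 0.0339 and Rpl7l1 from -0.16 to 0.10. With the Prkd3-/- label, Rpl36al was -0.0265 with lines 13 and 13a summed and -0.0885 to 0.26 with a library left out, Rpl7l1 was -0.0535 to 0.26, and with partner rows summed Rpl36a was -0.0535, Rpl39 -0.0165 and Rps6 -0.0217. Rpl3 between the labels in immortalized MEFs, called at 1.17, was -0.0373 with partner rows summed. The cause was not tested. Of the other values for named members, 789 kept direction and side of the threshold, 26 newly passed it and 23 no longer did.

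Counts limit what the rows of Rpl39l, Rpl3l and Rpl10l can show, and shared sequence limits the rows of members with few unique windows. Summing partner rows and the limit on uniqueness were chosen after seeing the data.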
